A study of Homo sapiens with 48 samples.

Results

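Rv1-Luc cells grown in androgen-depleted medium were compared with Rv1-Luc cells grown in androgen-containing medium, with the Mediator kinase inhibitor SNX631 present in both. The comparison took the 3 CSS libraries and the 3 FBS libraries of this subline that received SNX631, 6 of the 48 libraries of the series, and all 20009 genes that passed a filter on low counts. 22Rv1 is a human castration-resistant prostate cancer line. Rv1-Luc was derived from it with a lentivirus for firefly luciferase, so its RNA describes 1 transduced population of 1 line. CSS is fetal bovine serum (FBS) stripped with charcoal, and the stripping removes other steroids, retinoids and thyroid hormones along with androgens. Both groups received 500 nM SNX631, a selective inhibitor of CDK8 and CDK19, for 72 hours, and each had 3 biological replicates. The CSS cells had first spent a passage in CSS medium, and they were plated at 300000 cells per well against 200000 in FBS, so the serum, the extra passage and the plating density cannot be told apart. The same serum contrast in Rv1-Luc given the 0.1% DMSO vehicle, and in parental Rv1-WT given 500 nM SNX631, served for comparison.

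Androgen acts through a hormone-bound transcription factor that binds DNA at paired short sites and turns on genes such as KLK3, the gene of prostate-specific antigen. The glucocorticoid, retinoic acid and thyroid hormone receptors respond to other ligands found in serum. Luminal prostate cells use androgen to keep secretory and lipid genes on. CDK8 and CDK19 are alternative kinases of the Mediator complex, which links bound transcription factors to RNA polymerase II.

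The 6 libraries held 19524225 to 26217948 assigned counts, and the 3 CSS libraries were all shallower than the 3 FBS libraries. Luciferase transcripts were found in all 6 at 10231 to 13749 counts. All 10 luminal prostate markers were above 1 CPM (counts-per-million), with a summed level of 3513 to 3717 CPM in CSS and 4174 to 4411 CPM in FBS. In the vehicle libraries of Rv1-Luc the sums overlapped, at 3483 to 3580 CPM in CSS and 3485 to 3547 CPM in FBS. Of the 4 basal markers, KRT5, KRT14 and TP63 stayed at or under 3 counts in each of the 6 libraries, and KRT15 had a mean above 1 CPM in both groups. The 4 summed to 1.18 to 2.42 CPM in CSS and 1.53 to 3.78 CPM in FBS under SNX631. Plasma cell markers, 7 genes, summed to 4.80 to 19.6 CPM in CSS and 1.51 to 10.8 CPM in FBS, with MZB1 and TNFRSF17 at or under 3 counts in all 6 libraries. The endothelial markers summed to at most 0.294 CPM. Levels below are CPM scaled by the trimmed mean of M-values. They are not divided by gene length and are compared between libraries only.

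A change was called where edgeR's quasi-likelihood test, fitted over all 48 libraries, gave a false discovery rate (FDR) under 0.01 with a fold over 1.5. In the CSS libraries 119 genes were higher and 184 lower, which is 0.595% and 0.920% of the genes tested. At an FDR under 0.05 with no limit on fold, 1216 genes were higher (6.08%) and 1323 lower (6.61%), and the median log2 fold change of all genes was 0.01. The called changes were small, with a median size of 0.86 on the log2 scale, and 109 of the 303 were over 2-fold. Of the 303, 262 were protein-coding, 267 had a mean of at least 1 CPM, and 300 had 3 against 3 libraries that did not overlap. Among all 20009 genes, 2697 were higher and 2549 lower without overlap. Genes that pass the limits will mostly not overlap, so the 300 are no separate support. When the test was fitted on the 6 libraries alone, 184 genes were called, of which 182 were among the 303. The named genes that fell included steroid-responsive genes, hypoxia and glycolysis genes and keratins, and those that rose belonged to no one list.

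**Figure D1:**
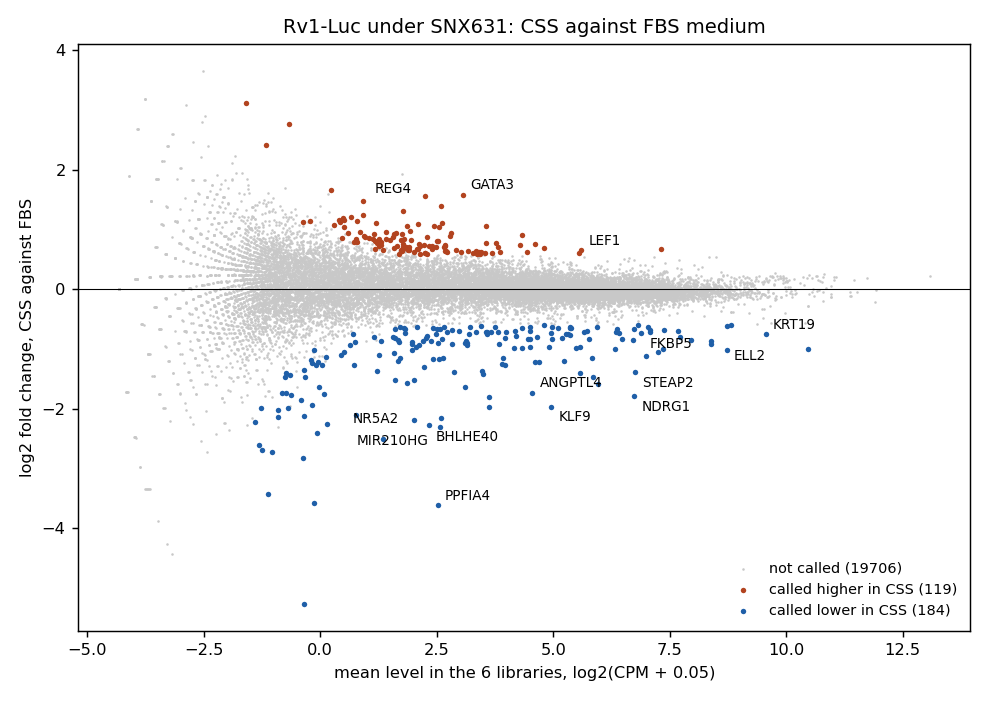
Each point is a gene: the horizontal axis is its mean level in the 6 libraries (log2 scale) and the vertical axis its log2 fold change, CSS against FBS, in Rv1-Luc under SNX631. Red points are the 119 genes called higher and blue points the 184 called lower; PPFIA4 at -3.61 and KLF9 at -1.96 lie far below it.

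Promoter sequences are shown for KLK3, the reference androgen target, and for 3 hypoxia genes that fell, since the results below turn on these groups. They come from RefSeq (GRCh38.p14), are written 5′ to 3′ on the gene's own strand, and stop where GENCODE places the first exon. In KLK3 the capitals mark the only match in the window to AGAACA, the letters of 1 arm of the androgen response element, which starts 170 bases before the gene (chr19:50854665-50854914, plus strand).
KLK3: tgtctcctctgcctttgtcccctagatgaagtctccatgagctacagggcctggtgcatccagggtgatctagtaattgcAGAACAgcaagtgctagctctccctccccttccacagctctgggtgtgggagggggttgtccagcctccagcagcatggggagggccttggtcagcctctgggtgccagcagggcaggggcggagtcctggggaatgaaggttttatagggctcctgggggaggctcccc
In the other 3 the capitals mark ACGTG, the core letters bound by hypoxia-inducible factors, on either strand. PPFIA4 lies on the plus strand at chr1:203026241-203026490, BNIP3 on the minus strand at chr10:131982014-131982173, and PGK1 on the plus strand at chrX:78103998-78104173.
PPFIA4: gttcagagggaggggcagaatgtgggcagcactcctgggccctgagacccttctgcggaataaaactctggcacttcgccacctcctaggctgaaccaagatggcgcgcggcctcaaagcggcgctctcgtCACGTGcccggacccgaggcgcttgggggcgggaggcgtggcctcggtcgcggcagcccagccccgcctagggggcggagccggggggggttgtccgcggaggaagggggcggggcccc
BNIP3: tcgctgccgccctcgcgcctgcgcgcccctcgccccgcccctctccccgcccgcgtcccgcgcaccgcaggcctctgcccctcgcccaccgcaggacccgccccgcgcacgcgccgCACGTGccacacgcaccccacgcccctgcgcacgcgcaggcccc
PGK1: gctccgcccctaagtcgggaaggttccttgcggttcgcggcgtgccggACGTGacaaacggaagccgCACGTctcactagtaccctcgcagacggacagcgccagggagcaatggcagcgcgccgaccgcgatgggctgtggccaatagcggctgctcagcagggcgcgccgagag
PPFIA4 and BNIP3 hold the core as the palindrome CACGTG, which reads on both strands, whereas PGK1 holds it at 2 separate positions. ACGTG was chosen after the values were seen. It was found within the 250 bases before the start in 10 of 17 hypoxia and glycolysis genes with a promoter in the table (58.8%) and in 5935 of 27305 genes in all (21.7%). It was also found in 7 of the 12 retinoid, glucocorticoid and vitamin D targets (58.3%) that had a promoter in the table. Of the 25 androgen-induced genes with a promoter it was found in 8 (32.0%). On both strands, AGAACA was found in 14.8% of all genes, the full androgen response element in 1 of 27305, and the sterol regulatory element in 12. Only 25 of 35 androgen-induced genes and 12 of 16 targets of other nuclear receptors had a promoter in the table. These, and the 17 of 19 hypoxia and glycolysis genes, are too few to read a share over a list as more than a description.

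Most androgen-induced genes had a fold change below 0 in CSS, but few passed the limit on fold. Of 35 listed genes 34 were tested and 26 had a log2 fold change below 0, beside 9586 of 20009 among all genes. None was called higher, 7 were called lower (FKBP5, STEAP2, SLC45A3, NDRG1, CHRNA2, ELL2 and MBOAT2) and 27 were not called, beside 0.920% called lower among all genes. At an FDR under 0.05 alone 17 of them were lower and 1, SPDEF, was higher, beside 6.61% and 6.08% of all genes. The median log2 fold change of the list was -0.19 beside 0.01 for all genes, and its median in each CSS library, relative to the FBS mean, was -0.22, -0.23 and -0.21.

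KLK3 carried the AGAACA shown above and was not called. Its level was 10.5, 9.05 and 11.5 CPM in FBS and 8.19, 7.69 and 7.87 CPM in CSS. All 3 CSS libraries were below all 3 FBS libraries, but the log2 fold change of -0.38 ± 0.13 (SE, n = 3 per group) had an FDR of 0.0328. KLK2, a related protease gene, stood at 11.1, 9.89 and 13.5 CPM in FBS and 7.79, 7.69 and 12.5 CPM in CSS, with groups that overlapped and an FDR of 0.292. TMPRSS2, a membrane protease gene driven by androgen, had a log2 fold change of -0.38 ± 0.07 with an FDR of 6.73e-05, short of the limit on fold.

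The 7 that fell did so in every library. STEAP2, a metalloreductase of the prostate cell surface (ENSG00000157214.14, chr7:90167590-90238137), went from 161, 150 and 161 CPM in FBS to 63.2, 63.8 and 53.0 CPM in CSS. Its log2 fold change was -1.39 ± 0.06 with an FDR of 9.58e-27, and the lowest FBS library was more than 2-fold above the highest CSS library. CHRNA2, a nicotinic acetylcholine receptor subunit, was at 68.9, 68.0 and 69.7 CPM in FBS and 28.3, 29.1 and 20.7 CPM in CSS (-1.40 ± 0.07, FDR 9.74e-24). FKBP5, a chaperone of steroid receptors and a target of several of them (chr6:35573585-35728583), was at 420, 399 and 476 CPM in FBS and 239, 232 and 242 CPM in CSS. It fell by 0.86 ± 0.04 on the log2 scale with an FDR of 3.13e-23. ELL2, an elongation factor of RNA polymerase II, was at 595, 497 and 596 CPM against 288, 244 and 308 CPM (-1.01 ± 0.06, FDR 1.05e-15). SLC45A3, a transporter of prostate epithelium, had a log2 fold change of -0.97 ± 0.08 (FDR 3.31e-14) and MBOAT2, an enzyme of phospholipid remodelling, -0.82 ± 0.07 (FDR 3.31e-14). SLC45A3 lost its call on the 6 libraries alone (FDR 0.0132). ELL2 exons overlap a transcript on the opposite strand. The seventh, NDRG1, is described with the hypoxia genes, to which it also belongs.

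Of the 8 tested androgen-repressed genes none was called by edgeR, and 2 were higher at an FDR under 0.05, beside 6.08% of all genes. The median of 0.09 rested on single libraries: it was -0.12 without CSS replicate 3, 0.22 without CSS replicate 2, and 0.02 and 0.01 without FBS replicates 1 and 2. The 2 higher genes were MET, the receptor of hepatocyte growth factor, at 0.48 ± 0.10 (FDR 4.24e-04) and UGT2B15, an enzyme that glucuronidates androgens, at 0.45 ± 0.15 (FDR 0.0349).

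In the list of retinoid, glucocorticoid and vitamin D targets 12 of 16 genes were tested, 5 were called lower (KLF9, FKBP5, ZBTB16, TSC22D3 and RARB), 0 higher and 7 were not called, beside 0.920% called lower among all genes. The median of the list was -0.63, and its median in the 3 CSS libraries was -0.43, -0.57 and -0.72 relative to FBS. FKBP5 is counted in both lists. KLF9, a zinc finger factor induced by glucocorticoid and thyroid hormone (ENSG00000119138.5, chr9:70384597-70414624), had the lowest FDR of the named genes in this contrast. It was at 49.5, 49.7 and 48 CPM in FBS and 14.1, 13.7 and 10.0 CPM in CSS, a log2 fold change of -1.96 ± 0.07 with an FDR of 7.24e-29. The FBS libraries lay within 2 CPM of each other, and every CSS library was far below them.

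ZBTB16, a zinc finger repressor induced by steroids, was at 170, 160 and 174 CPM in FBS and 108, 107 and 93.5 CPM in CSS (-0.71 ± 0.06, FDR 1.06e-13). TSC22D3, the glucocorticoid-induced leucine zipper gene, was at 56.5, 48.9 and 45.6 CPM in FBS and 40.9, 28.7 and 27.4 CPM in CSS. Its groups did not overlap, but its call (-0.64 ± 0.13, FDR 4.67e-04) was lost on the 6 libraries alone (FDR 0.114), and without FBS replicate 1 (-0.55), CSS replicate 2 (-0.56) or CSS replicate 3 (-0.53). Among 19 steroid and related receptor genes 2 were called lower and 0 higher, beside 0.920% called lower among all genes. They were THRB, the thyroid hormone receptor beta gene, at -0.82 ± 0.07 (FDR 1.00e-13), and RARB, the retinoic acid receptor beta gene, at -0.61 ± 0.10 (FDR 6.78e-06). RARB is also counted among the retinoid, glucocorticoid and vitamin D targets. THRB went from 47.4, 49.7 and 41.4 CPM to 26.3, 27.3 and 25 CPM, and RARB from 13.9, 13.2 and 12.3 CPM to 8.04, 8.02 and 9.69 CPM. RARB sat near the fold limit and dropped to -0.57 without FBS replicate 1 or CSS replicate 1 and to -0.56 without CSS replicate 2. Both genes have exons that overlap a gene on the opposite strand.

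**Figure D2:**
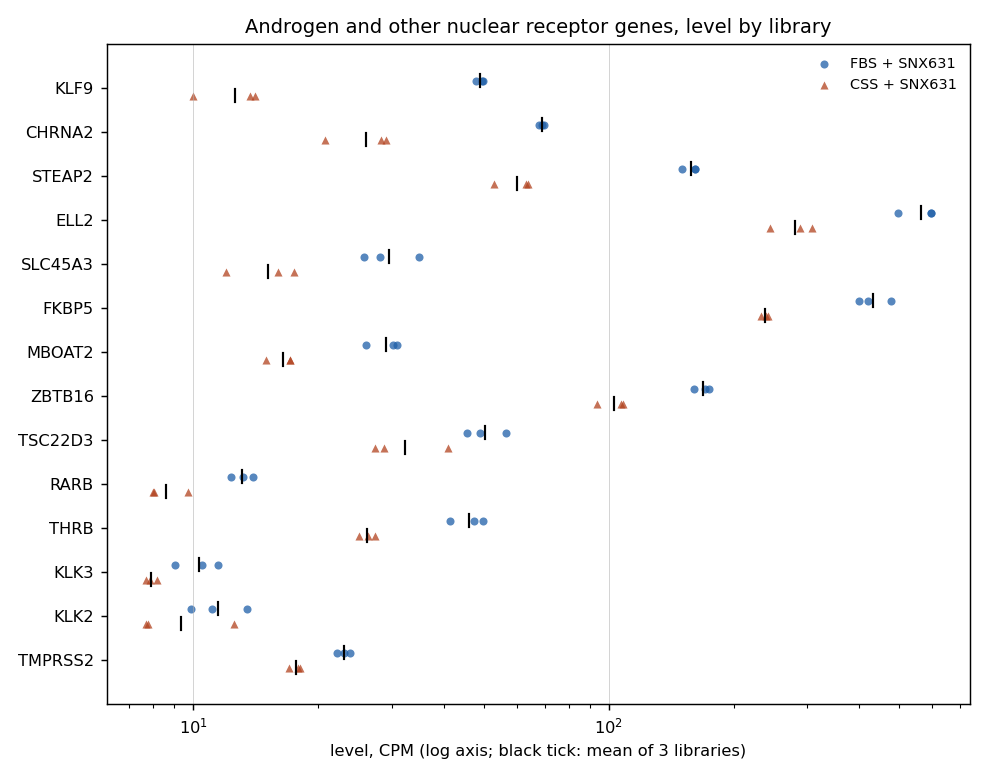
Level of androgen and other nuclear receptor genes in each Rv1-Luc library under SNX631 (CPM, log axis; circles, the 3 FBS libraries; triangles, the 3 CSS libraries; ticks, means). KLF9 fell from about 49.5 to 14.1 CPM or less, and the circles and triangles of KLK2 overlap.

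Of the hypoxia and glycolysis genes, which cells switch on when oxygen is short, a part fell in CSS, and the FBS libraries stood apart from each other. Of 19 listed genes 18 were tested, 7 were called lower (NDRG1, PFKFB4, BNIP3, PFKFB3, ADM, SLC2A1 and PGK1), 0 higher and 11 were not called, beside 0.920% called lower among all genes. At an FDR under 0.05, 16 were lower, beside 6.61% of all genes, and 1, the carbonic anhydrase gene CA12, was higher. The list's median was -0.54. Relative to the FBS mean, the list's median was -0.45, -0.60 and -0.58 in the CSS libraries and -0.00, -0.24 and 0.23 in FBS replicates 1, 2 and 3, so FBS replicate 2 was nearest to CSS. Without FBS replicate 3, 5 members were called and the median was -0.41, and without FBS replicate 2, 10 were called and the median was -0.65. On the 6 libraries alone 1 member was called. The plating densities differed as given above, and their part in these genes was not tested.

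PPFIA4, a liprin of cell adhesion sites (ENSG00000143847.16, chr1:203026498-203078740), had the lowest fold change among named genes. It was at 10.9, 4.31 and 16.5 CPM in FBS and 1.23, 0.741 and 0.605 CPM in CSS. The log2 fold change was -3.61 ± 0.42 with an FDR of 8.23e-08, and the FBS libraries spanned almost 4-fold among themselves. NDRG1, a stress gene induced both by hypoxia and by androgen, was at 173, 96.1 and 227 CPM in FBS and 54.0, 47.8 and 41.5 CPM in CSS (-1.79 ± 0.16, FDR 3.44e-10). BNIP3, a mitochondrial protein of mitophagy, was at 106, 73.9 and 142 CPM in FBS and 58.2, 48.8 and 53.9 CPM in CSS (-1.0 ± 0.13, FDR 1.33e-06). In all 3 genes FBS replicate 2 was the lowest FBS library and still stood above every CSS library.

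Genes of glucose use made up much of the rest. SLC16A3, the lactate exporter MCT4, was at 21.4, 9.93 and 26.9 CPM in FBS and 5.10, 4.31 and 5.36 CPM in CSS (-1.97 ± 0.23, FDR 9.70e-08). PFKFB4 and PFKFB3, enzymes that make the activator of phosphofructokinase, had log2 fold changes of -1.21 ± 0.14 (FDR 6.27e-08) and -0.82 ± 0.10 (FDR 2.25e-07). The glucose transporter gene SLC2A1 had -0.66 ± 0.08 (FDR 3.07e-07). PGK1, the phosphoglycerate kinase of glycolysis, was at 510, 413 and 607 CPM in FBS and 344, 322 and 340 CPM in CSS (-0.60 ± 0.07, FDR 1.57e-08). LDHA, lactate dehydrogenase A, had -0.56 ± 0.07 with an FDR of 9.23e-08 and was just short of the fold limit. SLC2A1 dropped to -0.50 and PGK1 to -0.46 without FBS replicate 3, and PGK1 to -0.58 without CSS replicate 2, while LDHA passed at -0.66 without FBS replicate 2 and at -0.63 without CSS replicate 1.

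MIR210HG, the host transcript of a hypoxia-induced microRNA, and BHLHE40, a basic helix-loop-helix repressor, fell beside them. MIR210HG was at 9.19, 4.96 and 14.9 CPM in FBS and 2.94, 1.76 and 1.21 CPM in CSS (-2.30 ± 0.30, FDR 8.10e-07). BHLHE40 was at 7.96, 3.90 and 12.9 CPM in FBS and 2.11, 1.81 and 1.21 CPM in CSS (-2.26 ± 0.31, FDR 1.31e-06). The peptide hormone gene ADM was at 5.63, 5.29 and 7.39 CPM in FBS and 3.73, 3.43 and 3.26 CPM in CSS (-0.81 ± 0.14, FDR 1.10e-05). Of the 11 called genes named in these paragraphs, all but ADM lost their calls when only the 6 libraries were fitted, with FDR values of 0.0724 for PPFIA4, 0.11 for MIR210HG, 0.11 for BHLHE40, 0.0931 for SLC16A3, 0.072 for NDRG1, 0.128 for BNIP3, 0.0749 for PFKFB4, 0.108 for PFKFB3, 0.11 for SLC2A1 and 0.103 for PGK1. Part of the counts of NDRG1, PFKFB4, SLC2A1 and PGK1 was fractional, that is divided between loci, in 47.9%, 43.8%, 27.1% and 72.9% of libraries, so their split with related or overlapping loci is uncertain. SLC16A3 and BHLHE40 have exons that overlap a gene on the opposite strand.

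**Figure D3:**
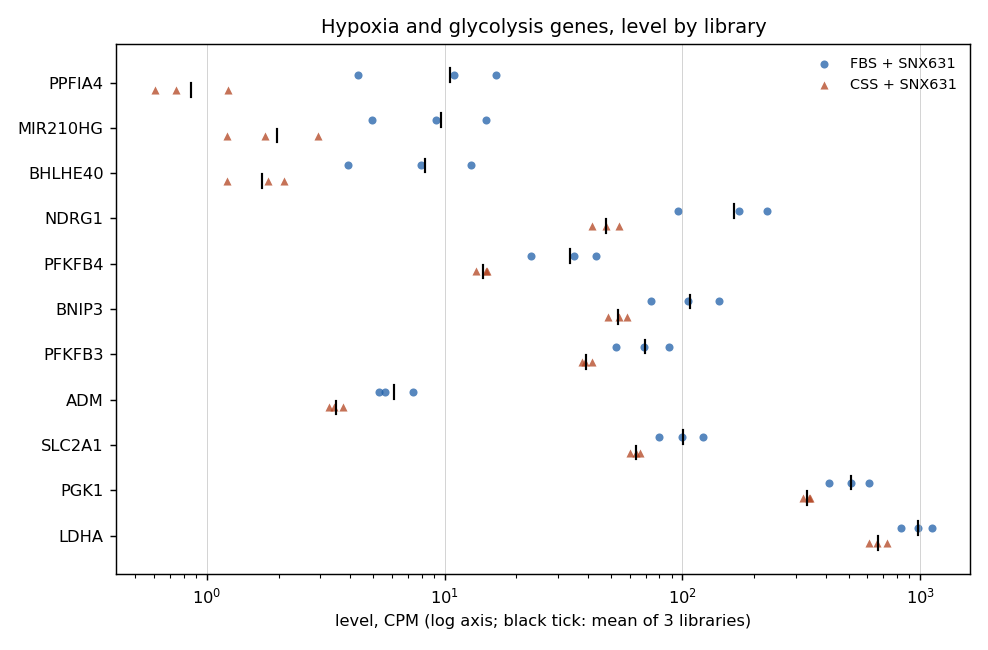
Level of hypoxia and glycolysis genes in each Rv1-Luc library under SNX631 (CPM, log axis; circles, the 3 FBS libraries; triangles, the 3 CSS libraries; ticks, means). In each gene shown the 3 CSS libraries lie below the 3 FBS libraries, whose lowest point is FBS replicate 2 throughout.

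Of the lipid lists, each of the fatty acid lists held 1 called gene, which was lower, beside 0.920% called lower among all genes. ANGPTL4, a secreted inhibitor of lipoprotein lipase, was at 36.9, 30.2 and 40.8 CPM in FBS and 9.46, 10.8 and 12.2 CPM in CSS (-1.73 ± 0.11, FDR 1.47e-17). It was the called member of 13 tested fatty acid oxidation and storage genes, whose median was 0.02. ELOVL5, an elongase of polyunsaturated fatty acids, was at 211, 202 and 201 CPM in FBS and 134, 128 and 122 CPM in CSS (-0.68 ± 0.04, FDR 8.98e-22). It was the called member of 13 fatty acid synthesis genes, whose median of -0.12 was -0.19 without CSS replicate 1. Of these 13, 5 were lower at an FDR under 0.05 and none higher, beside 6.61% and 6.08% of all genes. None of 24 sterol synthesis and uptake genes was called.

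NR5A2, an orphan nuclear receptor gene, was at 5.98, 6.02 and 7.51 CPM in FBS and 1.76, 1.53 and 1.02 CPM in CSS (-2.18 ± 0.18, FDR 1.91e-14). CNTNAP5, a neurexin family gene, was at 4.18, 4.31 and 4.13 CPM in FBS and 0.833, 0.602 and 0.792 CPM in CSS (-2.50 ± 0.27, FDR 1.55e-10). These genes were low in both media, and every CSS library was below every FBS library. GHRHR, the growth hormone releasing hormone receptor gene, had -2.11 ± 0.26 (FDR 9.97e-09), POU2AF1, a coactivator gene of B cells, -2.26 ± 0.31 (FDR 1.05e-07), and ST6GALNAC1, a sialyltransferase gene, -1.75 ± 0.34 (FDR 1.45e-04). CHRNA4, another nicotinic receptor subunit gene, and PAX1 were at or under 3 counts in all CSS libraries and at least 10.2-fold and 5.36-fold lower there, against a floor of 3 counts per library. Both were chosen after their values were seen, and the bounds cover counting error only.

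Of 9 tested keratins, 2 were called lower and all 9 had a log2 fold change below 0. Among all genes 0.920% were called lower, and 9586 of 20009 had a log2 fold change below 0. The keratin median was -0.46, and it was -0.89 without CSS replicate 3 and -0.23 without CSS replicate 1. KRT19 was at 954, 781 and 1112 CPM in FBS and 533, 478 and 677 CPM in CSS (-0.75 ± 0.13, FDR 6.73e-05). KRT7 was at 200, 158 and 259 CPM in FBS and 87.8, 79.8 and 130 CPM in CSS (-1.05 ± 0.17, FDR 3.23e-05). Both are keratins of simple epithelia. Their groups did not overlap, and both lost their calls on the 6 libraries alone (FDR 0.115 and 0.124). Without FBS replicate 2 or CSS replicate 3, 4 keratins were called. KRT8, a luminal keratin, had a log2 fold change of -0.57 ± 0.05 (FDR 3.00e-12). It is named after its values were seen, and its counts were fractional in 50% of libraries.

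Among 30 ATF4 stress genes 2 were called lower and none higher, beside 0.920% called lower among all genes. At an FDR under 0.05, 7 were lower and none higher, beside 6.61% and 6.08% of all genes. The median of the 30 was -0.02 and lay between -0.07 and 0.04 without 1 library. DDIT4, an inhibitor of mTORC1, was at 51.3, 39.2 and 67.2 CPM in FBS and 26.4, 23.9 and 18.3 CPM in CSS (-1.20 ± 0.12, FDR 1.24e-09), and GDF15, a secreted stress cytokine, at 84.7, 56.7 and 92.8 CPM against 36.3, 29.6 and 39.7 CPM (-1.15 ± 0.14, FDR 1.88e-07). As in the hypoxia genes, FBS replicate 2 was the lowest FBS library in both, and both lost their calls on the 6 libraries alone (FDR 0.0795 and 0.0718). DDIT3, the gene of CHOP, had -0.01 ± 0.06 (FDR 0.924).

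Among 24 mitosis genes AURKB, the kinase of the chromosomal passenger complex, was called, at 135, 130 and 126 CPM in FBS and 83.4, 80.8 and 82.8 CPM in CSS (-0.66 ± 0.05, FDR 7.38e-16). The other 23 were not called, beside 0.920% called lower among all genes. At an FDR under 0.05, 8 of the 24 were lower and none higher, beside 6.61% and 6.08% of all genes. The median of the 24 was -0.11. MYC, the growth regulator, had 0.01 ± 0.05 (FDR 0.929). CDK8, a target of the inhibitor, was at 27.3, 28.1 and 29.8 CPM in FBS and 24.4, 24.6 and 25.3 CPM in CSS (-0.20 ± 0.06, FDR 0.00983), and CDK19 had -0.01 ± 0.04 (FDR 0.912).

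Across further lists calls went in both directions, beside 0.595% called higher and 0.920% called lower among all genes. DUSP4, a phosphatase of MAP kinases, was the called member of 20 immediate-early genes (-0.83 ± 0.07, FDR 1.70e-13). At an FDR under 0.05, 4 of the 20 were higher and 1 lower, beside 6.08% and 6.61% of all genes. Their median was 0.06 and lay between -0.01 and 0.09 without 1 library. GCLC, the catalytic subunit of glutathione synthesis, was the called member of 15 zinc and NRF2 genes (-0.60 ± 0.07, FDR 9.88e-09) and lost its call on the 6 libraries alone (FDR 0.0213). It was also under the fold limit without FBS replicate 3 (-0.53), CSS replicate 1 (-0.58) or CSS replicate 2 (-0.53). Of 18 EGF and Wnt genes, DKK1, a secreted Wnt inhibitor, was called lower (-0.93 ± 0.18, FDR 1.50e-04) and LEF1, a Wnt-responsive factor, higher. DKK1 lost its call without CSS replicate 2 (-0.65, FDR 0.0127) and on the 6 libraries alone (FDR 0.1). Of 13 neuroendocrine and secretory genes, 1 was called higher and 2 lower, with a median of 0.00. The higher one was REG4 (1.56, FDR 1.59e-09), described below. CALCA (-1.27 ± 0.32, FDR 0.00432) and SCGN (-0.63 ± 0.13, FDR 4.17e-04) were called lower, near the threshold. CALCA had an FDR of 0.112 without CSS replicate 2, 0.0201 and 0.0263 without FBS replicates 2 and 3 and 0.0106 without CSS replicate 1. SCGN had an FDR of 0.0205 without FBS replicate 1 and 0.0176 without CSS replicate 2. Both lost their calls on the 6 libraries alone, with FDR values of 0.0368 for CALCA and 0.0185 for SCGN.

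In 11 lists no gene was called by edgeR, and DESeq2's Wald test called none in them either. At an unadjusted p under 0.05 they held 12 of 20 endoplasmic reticulum chaperones, all lower (median -0.12), 5 of 15 heat shock genes, all lower (median -0.05), and 2 of 24 sterol synthesis and uptake genes, both lower (median -0.05). Chaperones fold new proteins in the secretory pathway, and 8 of the 20 were lower at an FDR under 0.05, beside 6.61% of all genes. DNAJB9 was at -0.37 ± 0.06 and DNAJB11 at -0.30 ± 0.05. Of 24 DNA replication genes 7 reached that p (median -0.05) and of 25 MYC and ribosome biogenesis genes 9 (median -0.03). The counts were 5 of 15 for androgen synthesis and inactivation (median 0.02), 2 of 8 for androgen-repressed genes, 4 of 18 for interferon-stimulated genes (median 0.17) and 2 of 7 for sterol efflux (median 0.11). They were 3 of 7 for aryl hydrocarbon receptor targets (median -0.19) and 2 of 7 for the Mediator kinase module (median -0.03). The interferon median was 0.03 without CSS replicate 2 and 0.07 without FBS replicate 3, and the aryl hydrocarbon receptor median -0.38 without CSS replicate 3 and -0.35 without FBS replicate 2. Leaving out 1 library turned the sign of the sterol synthesis median (0.02 without CSS replicate 3) and of that for androgen synthesis (-0.08 without FBS replicate 1, -0.06 and -0.12 without CSS replicates 1 and 3). Over all genes, 5045 of 20009 reached an unadjusted p under 0.05.

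Among the genes that rose was GATA3, a zinc finger factor of luminal epithelium (ENSG00000107485.18, chr10:8045378-8075203). It was at 4.62, 3.76 and 4.13 CPM in FBS and 12.3, 12.0 and 13.1 CPM in CSS, a log2 fold change of 1.58 ± 0.13 with an FDR of 9.16e-15. The CSS libraries lay close together at about 3-fold the FBS level. REG4, a secreted lectin of gut and neuroendocrine cells (chr1:119794018-119811660), was at 2.55, 2.55 and 2.07 CPM in FBS and 7.89, 6.16 and 7.08 CPM in CSS (1.56 ± 0.18, FDR 1.59e-09). INHBA, the activin A subunit gene, was at 3.82, 3.21 and 2.90 CPM in FBS and 8.04, 8.20 and 9.87 CPM in CSS (1.40 ± 0.16, FDR 8.57e-10). CDH2, the gene of N-cadherin, was at 1.01, 1.09 and 0.795 CPM in FBS and 2.35, 2.60 and 3.17 CPM in CSS (1.48 ± 0.22, FDR 1.49e-06). LEF1 was at 35.1, 39.7 and 38.2 CPM in FBS and 59.8, 59.4 and 58.5 CPM in CSS (0.65 ± 0.06, FDR 1.91e-12), and its exons overlap LEF1-AS1 on the opposite strand. In each of these 5 genes the 3 CSS libraries stood above the 3 FBS libraries.

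The other named genes that rose were less firm. AMZ1, a metalloprotease gene, had 1.32 ± 0.19 (FDR 6.29e-07), KLHDC8A 1.15 ± 0.22 (FDR 1.40e-04), and HPX, the gene of the heme carrier hemopexin, 1.22 ± 0.26 (FDR 6.58e-04). PNMA2 had 1.11 ± 0.15 (FDR 6.56e-08), and its exons overlap BNIP3L on the opposite strand, which fell by 0.84 on the log2 scale. HPX lost its call without FBS replicate 3 (FDR 0.0125). CGA, the common alpha subunit of glycoprotein hormones (1.17 ± 0.31, FDR 0.00725), and SCGB1D2, a secretoglobin gene (1.12 ± 0.29, FDR 0.00451), lost their calls on the 6 libraries alone, at FDR values of 0.0174 and 0.0227, and in 4 and 3 of the 6 fits without 1 library. In those CGA had an FDR of 0.0561 and 0.0585 without FBS replicates 2 and 3 and of 0.0519 and 0.0187 without CSS replicates 1 and 2, and SCGB1D2 one of 0.0777 without FBS replicate 3 and of 0.0424 and 0.0115 without CSS replicates 1 and 2. The pseudogene CYP4F35P (1.2 ± 0.32, FDR 0.00721), with fractional counts in 50% of libraries, lost its call without any library but FBS replicate 1, with FDR values of 0.0458, 0.036, 0.0144, 0.0174 and 0.038 without FBS replicates 2 and 3 and CSS replicates 1, 2 and 3.

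IGHG3, an immunoglobulin heavy chain gene, was called higher at 0.659, 0.511 and 0.437 CPM in FBS against 2.35, 1.90 and 0.885 CPM in CSS (1.67 ± 0.43, FDR 0.0069). Immunoglobulin counts of all kinds were 297, 792 and 263 in the FBS libraries and 1170, 675 and 418 in the CSS libraries, so these groups overlapped. None of the 7 plasma cell markers was called, and their summed levels, given above, overlapped between the groups. Their part in the result was not tested. Its call was lost without any single library but CSS replicate 3, with FDR values of 0.0143, 0.0294 and 0.0457 without FBS replicates 1, 2 and 3 and of 0.0564 and 0.0377 without CSS replicates 1 and 2.

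**Figure D4:**
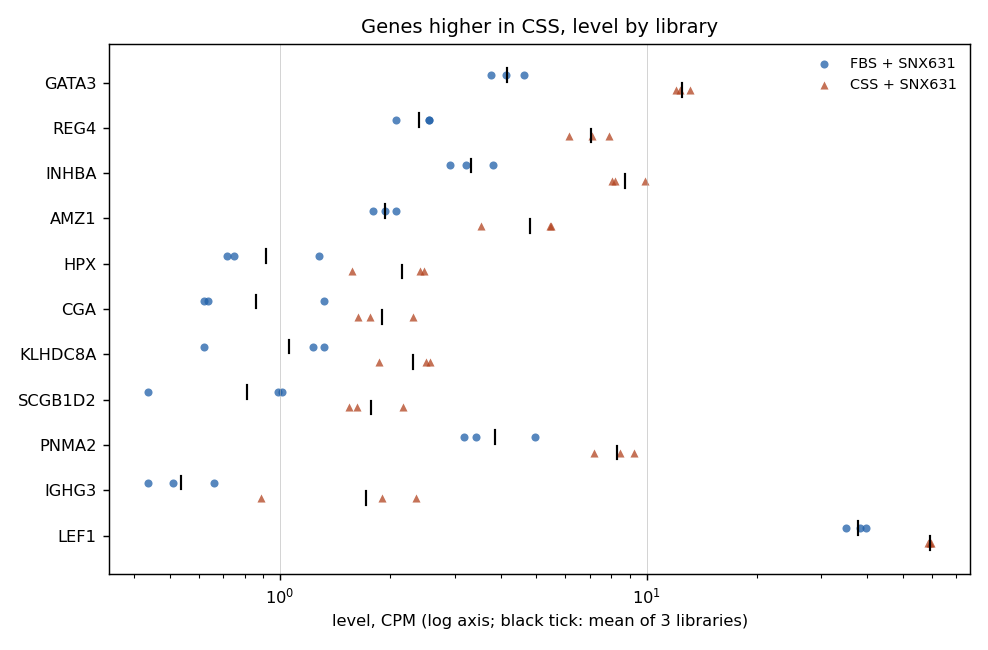
Level of genes called higher in CSS in each Rv1-Luc library under SNX631 (CPM, log axis; circles, the 3 FBS libraries; triangles, the 3 CSS libraries; ticks, means). GATA3 at 12.0 to 13.1 CPM in CSS is separated from FBS by about 3-fold, and most other genes shown lie below 10 CPM.

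The same medium contrast under vehicle asked how much of this depended on the inhibitor. It called 136 genes higher (0.680%) and 162 lower (0.810%). The lower sets shared 92 genes, 50% of the 184 and 56.8% of the 162, and the higher sets shared 44, which is 37.0% of the 119 and 32.4% of the 136. Of the 184 genes, 176 were also below 0 under vehicle, and of the 119, 113 were above 0. The contrasts share no library. KLF9 had a log2 fold change of -1.87 under vehicle, STEAP2 -1.44, FKBP5 -0.86, ELL2 -0.98 and CHRNA2 -1.16, beside -1.96, -1.39, -0.86, -1.01 and -1.40 under SNX631.

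The test of the difference itself compared the signed log2 fold change in CSS. Under SNX631 it was called higher than under vehicle in 11 genes (0.0550%) and lower in 5 (0.0250%). At an FDR under 0.05 alone 102 genes (0.510%) differed. The 16 rested on few libraries: 8 were called without FBS SNX631 replicate 1, 31 without FBS SNX631 replicate 2 and 27 without FBS vehicle replicate 1. When only the 12 libraries of the test were fitted, 2 genes were called, of which 1 was among the 16. COLCA1, whose exons overlap COLCA2 on the opposite strand, went under vehicle from 109 ± 7.62 CPM (SD, n = 3) in FBS to 16.1 ± 2.14 CPM in CSS. Under SNX631 it went from 93.5 ± 15 CPM to 31.0 ± 4.88 CPM. The log2 fold change was -2.77 under vehicle and -1.59 under SNX631, a difference of 1.18 ± 0.13 (FDR 2.48e-07). The neighbouring genes KANSL1L, a homologue of a chromatin complex subunit, and ACADL, an acyl-CoA dehydrogenase, differed by 0.89 ± 0.10 (FDR 1.50e-08) and 0.70 ± 0.08 (FDR 3.53e-08). KANSL1L went from 88.8 ± 2.58 to 35.6 ± 5.41 CPM under vehicle and from 102 ± 3.89 to 75.3 ± 8.62 CPM under SNX631. ACADL went from 72.4 ± 0.564 to 35.7 ± 3.45 CPM under vehicle and from 41.7 ± 1.26 to 33.5 ± 2.64 CPM under SNX631. KANSL1L and ACADL had fractional counts in 41.7% and 39.6% of libraries.

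The difference had the other sign in NDRG1 and VIL1. NDRG1 went from 176 ± 12.1 to 114 ± 18.3 CPM under vehicle and from 165 ± 66.0 to 47.8 ± 6.28 CPM under SNX631, a difference of -1.17 ± 0.22 (FDR 0.0049). VIL1, the gene of the microvillus protein villin, was at 22.4 ± 2.35 and 25.3 ± 2.12 CPM under vehicle and at 57.8 ± 6.66 and 42.9 ± 2.24 CPM under SNX631 (-0.61 ± 0.10, FDR 2.89e-04). PPFIA4, with -1.29 under vehicle, had an FDR of 0.0432 for the difference and was not called. IGHG3 differed by 5.14 ± 0.69 (FDR 1.60e-05), at 1.90 ± 1.73 CPM in FBS and 0.169 ± 0.0243 CPM in CSS under vehicle, and JCHAIN and IGHM were called with it. The summed plasma cell markers were 10.6 to 25.1 CPM in FBS and 1.79 to 3.92 CPM in CSS under vehicle, while those of the SNX631 libraries overlapped, and their part in these 3 calls was not tested.

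Among androgen-induced genes the effect was smaller under SNX631 at the FDR of 0.05 in 3 genes, among them PMEPA1 (difference 0.21, FDR 0.046) and HPGD (0.42, FDR 1.11e-05), and larger in NDRG1. None of the 3 passed the limit on fold. The median of the list was -0.42 under vehicle, with 11 genes called lower, beside -0.19 and 7 under SNX631. Among all genes 0.810% and 0.920% were called lower. The 2 medians and counts were not tested against each other. Relative to the FBS mean under SNX631, the list's median was -0.42, -0.30 and -0.22 in the CSS vehicle libraries and 0.06, -0.03 and -0.06 in the FBS vehicle libraries. In the CSS libraries under SNX631 it was -0.22, -0.23 and -0.21. KLK3 had -0.92 under vehicle, where it went from 8.83 to 4.68 CPM. ELOVL5 fell more under SNX631 by 0.36 on the log2 scale (FDR 2.36e-05), also short of the fold limit.

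In parental Rv1-WT under SNX631 the same contrast called 973 genes higher (4.86%) and 594 lower (2.97%). It shared 68 of the 184 lower genes (37.0% of these, 11.4% of the 594) and 32 of the 119 higher genes (26.9% and 3.29%), while 16 of the 184 and 4 of the 119 were called in the opposite direction there. By the test of the difference, the signed log2 fold change was higher in Rv1-Luc than in Rv1-WT in 532 genes (2.66%) and lower in 637 (3.18%). Stress and sterol genes were among those called in Rv1-WT. ATF4 stress genes had a median of 0.78 in Rv1-WT with 20 of 30 called higher, heat shock genes -0.79 with 8 of 15 called lower, and sterol genes -0.61 with 13 of 24 called lower, beside medians of -0.02, -0.05 and -0.05 in Rv1-Luc.

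HSPA8, a constitutive heat shock chaperone, had a log2 fold change of -1.65 in Rv1-WT and -0.08 in Rv1-Luc (difference 1.57, FDR 5.44e-29), and DDIT3 had 1.68 and -0.01 (difference -1.69, FDR 7.15e-24). HSPA1B, whose near copy HSPA1A makes its counts uncertain, differed by 1.57 (FDR 5.36e-25), ATF3, a stress-induced factor, by -1.58 (FDR 1.15e-22), and TES, a focal adhesion gene, by -1.17 (FDR 2.31e-23). These 5 were called in Rv1-WT and not in Rv1-Luc. Genes that fell in Rv1-Luc and rose in Rv1-WT included DUSP4 (-0.83 and 0.88), TSC22D3 (-0.64 and 1.12), GDF15 (-1.15 and 1.30) and DDIT4 (-1.20 and 0.81). NR5A2, at -2.18 in Rv1-Luc and 0.50 in Rv1-WT, differed by -2.68 (FDR 4.97e-15). Of the steroid targets, KLF9 differed by -1.06 (FDR 4.61e-12), STEAP2 by -0.76 (FDR 6.46e-11) and ELL2 by -1.16 (FDR 2.02e-13), and KLK3, at 0.41 in Rv1-WT, by -0.80 (FDR 0.00204). Hypoxia genes had medians of -0.54 in Rv1-Luc and -0.45 in Rv1-WT, with 7 called lower in each and 1 called higher in Rv1-WT. Under vehicle in Rv1-Luc the median was -0.42 with 5 called lower. Of the 18 genes 3 were called lower in Rv1-Luc in the test of the difference between the lines, among them NDRG1 at -1.09 (FDR 3.18e-04) and ADM at -0.95 (FDR 1.08e-04), while PGK1 and BNIP3 differed by 0.08 (FDR 0.59) and -0.03 (FDR 0.939).

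**Figure D5:**
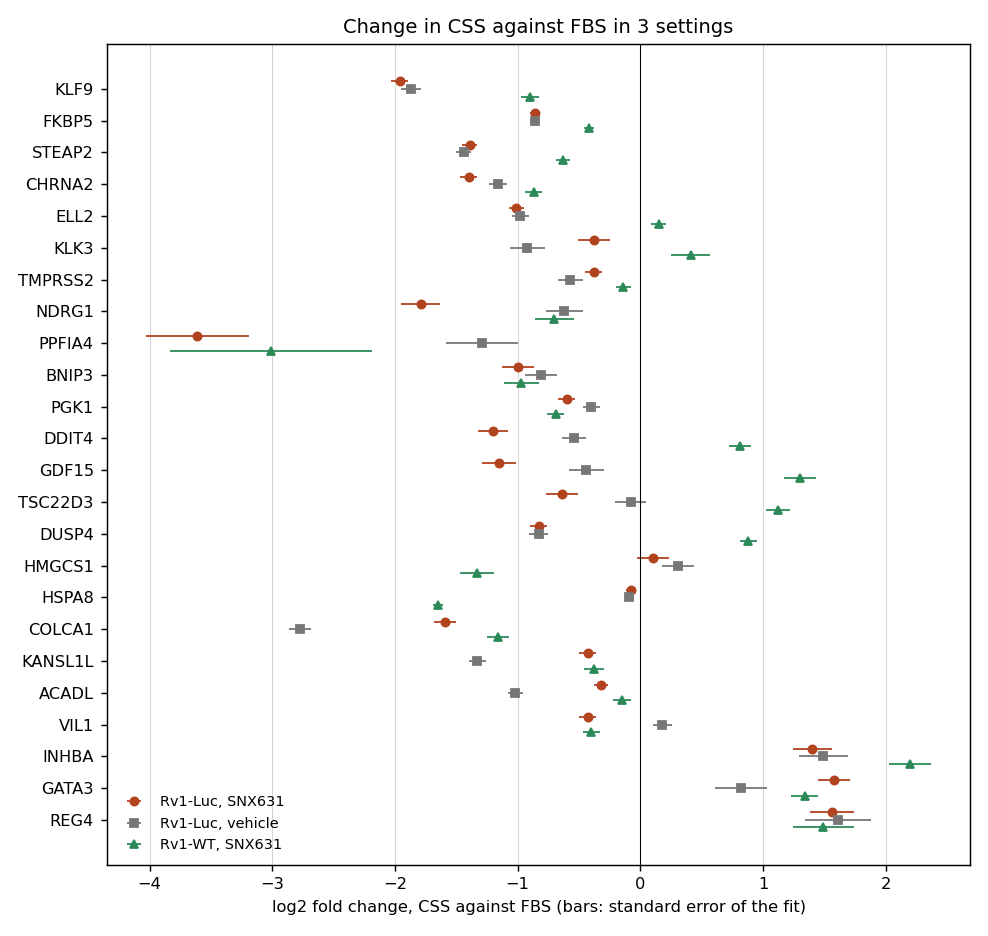
Log2 fold change of CSS against FBS for 24 genes in Rv1-Luc under SNX631 (circles), Rv1-Luc under vehicle (squares) and Rv1-WT under SNX631 (triangles), 3 libraries per group. Bars are the standard error of the fit, whose spread was estimated from all 48 libraries. KLF9, FKBP5 and STEAP2 lie together in both Rv1-Luc settings, whereas DDIT4, GDF15, TSC22D3 and DUSP4 lie on opposite sides of zero in Rv1-Luc and Rv1-WT.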

How the data were processed

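RNA was measured by bulk RNA-Seq with the NEBNext Ultra II Directional kit, per the labels. The authors deposited 1 table of expected counts (estimated counts, of which 81.6% of the non-zero values are whole), with 61815 gene entries and 2 transgenes in 48 libraries. The submitters' processing notes name FastQC, cutadapt 2.8, STAR 2.7.2b, featureCounts of Subread 2.0.3 and the builds GRCh38.p13 and GRCm39. The strand setting, annotation release and treatment of reads with several loci are not given in the sources used here. A gene with fractional values in more than 25% of libraries is described as sharing reads.

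Counts were rounded, filtered with filterByExpr (at least 10 counts, 15 in total), scaled by TMM (factors 0.911 to 1.07) and tested with edgeR 4.0.16 (glmQLFit robust, glmQLFTest, two-sided, 16 group means, 32 residual degrees of freedom) in R 4.3.3, with Benjamini-Hochberg adjustment over 20009 genes. SE is the log2 fold change divided by the root of F. The common coefficient of biological variation was 4.2%. On data simulated for this comparison (19803 genes), the test called 36% of genes changed 1.5-fold (the fold limit itself), 94% at 2-fold, 98% at 3-fold and 100% at 4-fold, and 2 of 19603 unchanged genes. The simulated counts were drawn gene by gene at the spread that the fit itself estimated. Shifts shared by many genes of a library were absent from them, so the false calls of the real data are not measured by this. Replicate libraries differed beyond sampling noise (chi-square per degree of freedom 2.88 to 4.49). What separates replicates beyond being biological is not given. The p-values of the main fit use a spread estimated from the replicates of all 48 libraries, not from the compared libraries alone. Fitted on only the libraries of the comparison, 23 of the 53 named calls were lost.

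The comparison, the gene lists and the named genes were chosen with earlier results of these data known. Named genes were the 12 called genes with the highest and the 12 with the lowest fold change at a mean of at least 1 CPM with groups that do not overlap, the called members of 24 lists (for a list with none, the 2 with the lowest p), 12 reference genes, and the 5 called genes of lowest p in each test of a difference. SPDEF, CA12, PMEPA1, HPGD, JCHAIN, IGHM, KRT8, BNIP3L, CHRNA4 and PAX1 fall outside this rule and were named after their values were seen. Some genes that the rule names are not reported here. Where a symbol had more than 1 entry, the entry of higher mean was used. Positions come from GENCODE v29, to which 58261 identifiers were matched without version. Alternatives were 2 other scalings, filters, rounding down, a test against a fold of 1.5, fewer libraries, a replicate block, leaving out each library, and DESeq2 1.42.0.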

Additional observations from a re-analysis of the deposited data

Results flagged for a closer look

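The effect of CSS under SNX631 differed from that under vehicle, by the edgeR quasi-likelihood test of the difference itself, in 16 genes. The named ones, as the log2 difference, were COLCA1 at 1.18, KANSL1L at 0.89, ACADL at 0.70, VIL1 at -0.61, NDRG1 at -1.17 and IGHG3 at 5.14. When only the 12 libraries of that test were fitted, 1 of the 16 kept its call.

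Between Rv1-Luc and Rv1-WT under SNX631, 1169 genes differed by the same test. The signed log2 fold change in CSS was lower in Rv1-Luc than in Rv1-WT for the hormone targets and receptor genes KLF9 (-1.06), STEAP2 (-0.76), ELL2 (-1.16), KLK3 (-0.80), TSC22D3 (-1.76), ZBTB16 (-0.60), THRB (-0.93), RARB (-0.79) and NR5A2 (-2.68). It was lower for the stress and signalling genes DDIT3 (-1.69), ATF3 (-1.58), DDIT4 (-2.02), GDF15 (-2.45), DUSP4 (-1.71), DKK1 (-1.97), TIPARP (-1.14), ADM (-0.95), NDRG1 (-1.09) and INHBA (-0.80). It was also lower for KRT7 (-1.75), CALCA (-2.67), SCGN (-1.09), CNTNAP5 (-2.48) and TES (-1.17). The signed log2 fold change was higher in Rv1-Luc for the chaperones HSPA8 (1.57), HSPA1B (1.57) and HSPH1 (0.74) and the sterol enzymes HMGCS1 (1.44) and EBP (0.67). It was higher too for OAS3 (1.03), HPX (1.36), KLHDC8A (2.15), PNMA2 (1.43) and SCGB1D2 (2.32). Values are the log2 fold change in Rv1-Luc less that in Rv1-WT. A higher value can thus be a smaller fall, and a lower value a larger fall. The 2 tests share the Rv1-Luc libraries under SNX631.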

How the results depend on the processing

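The count of 303 called genes became 2539 at an FDR under 0.05 with no fold limit and 59 in a test against a fold of 1.5 (6 higher and 53 lower, 10.2% higher against 39.3%). The 6 libraries alone gave 184 and the 12 Rv1-Luc libraries 201. The scalings, filters, rounding, DESeq2 and the set without genes that share reads gave 253 to 330, and leaving out 1 library 230 to 326, with no called gene changing direction in any of these. For the difference from vehicle, 16 genes became 102 at an FDR under 0.05, 1 against a fold of 1.5, 50 with no filter, 2 on its own libraries (1 of them among the 16), and 8 to 31 without 1 library. For the difference from Rv1-WT, 1169 became 5554, 189 against a fold of 1.5, and 1051 to 1181 without 1 library.

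The shared replicate numbers did not pair the libraries: the correlations of same-numbered CSS and FBS libraries were -0.0643, -0.0345 and 0.092. With a replicate block the calls were 306 (297 shared with the 303), 19 and 1136, and 0 of 53 named calls were lost. CSS replicates 1 and 2 did not correlate best with the FBS library of their own number.

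Of the 53 named calls, 23 were lost on the 6 libraries alone, 1 with library size only and 2 to 11 without 1 library. Genes that were not called crossed 0: CDK19 at 0.00 with library size only, 0.00 without FBS replicate 3 and 0.01 without CSS replicate 2, MYC at -0.04 without FBS replicate 3 and -0.03 without CSS replicate 1, HMGCS1 and HSPA1B at -0.02 each without FBS replicate 3, and DDIT3 at 0.00 with library size only, 0.00 without FBS replicate 2 and 0.01 without CSS replicate 2. Without 1 library the far ends were 0.24 for HMGCS1 and -0.05 for DDIT3. Genes at or under 3 counts per library are at the floor, where depth allows only a bound on the fold.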

Other observations

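Further genes were chosen after their values were seen, among those called, and are given as values that stand for no class of genes. Called lower in CSS, and known from elsewhere as responsive to low oxygen, were STC1, a glycoprotein hormone gene, at a log2 fold change of -2.69 ± 0.69 (edgeR FDR 0.0044), the aldolase gene ALDOC at -0.98 ± 0.12 (FDR 2.96e-07), NDUFA4L2 at -0.90 ± 0.16 (FDR 5.40e-05), the lysyl oxidase gene LOX at -0.86 ± 0.15 (FDR 1.20e-05), BNIP3L at -0.84 ± 0.07 (FDR 3.21e-11), FUT11 at -0.70 ± 0.13 (FDR 8.53e-05) and the glycogen branching enzyme gene GBE1 at -0.63 ± 0.06 (FDR 2.78e-12). FBS replicate 2 was the lowest FBS library in each of these 7 genes. STC1 was low, at 0.527, 0.146 and 1.27 CPM in FBS and 0.049, 0.0 and 0.233 CPM in CSS, and its groups overlapped.

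Among prostate cell surface and kallikrein genes, STEAP1 was at 87.2, 78.8 and 90.7 CPM in FBS and 29.5, 30.5 and 32.7 CPM in CSS (-1.47 ± 0.06, FDR 9.58e-27), beside -1.54 under vehicle and -1.35 in Rv1-WT. KLK15 had -0.97 ± 0.18 (FDR 7.54e-05), with -0.93 under vehicle and -0.19 in Rv1-WT.

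CMAS, which activates sialic acid, was at 271, 255 and 278 CPM in FBS and 154, 140 and 168 CPM in CSS (-0.80 ± 0.04, FDR 2.00e-22), and the sialyltransferase genes ST8SIA1 and ST3GAL6 had -1.16 ± 0.15 (FDR 3.93e-08) and -1.13 ± 0.26 (FDR 0.00175). ST8SIA4 and ST6GALNAC5 were higher, at 0.65 ± 0.15 (FDR 0.00172) and 0.62 ± 0.15 (FDR 0.00175). The proteoglycan genes VCAN, BGN and HSPG2 were higher at 1.07 ± 0.14 (FDR 3.47e-07), 0.94 ± 0.17 (FDR 3.13e-05) and 0.81 ± 0.18 (FDR 0.0012), and the fibronectin gene FN1 and the collagen gene COL2A1 were lower at -0.98 ± 0.13 (FDR 1.01e-06) and -0.82 ± 0.17 (FDR 4.90e-04).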
